A study of Rattus norvegicus with 4 samples.

Results

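The CDK inhibitors and D-type cyclins are 10 genes that set whether a cell leaves the cell cycle, and they are described here in rat oligodendrocyte precursor cells (OPCs) after silencing of the receptor Gpr17. They make up 10 of the 11656 genes that had a symbol and at least 1 tested probe. The members were selected on the comparison described below, because Cdkn1a stood among the genes with the largest upward differences, and the rest of its family and the cyclins it acts beside were taken with it. For that reason the difference of each member is given as a description, with its standard error and no test. All 16 non-control probes whose transcript accession maps to a member were read, of 45598 probes, and 15 of them exceeded background clearly, by the call of the image analysis software, on all 4 arrays and were tested. No member therefore entered through 1 group only, and each of the 10 genes had at least 1 such probe.

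OPCs came from the pooled cerebral cortices of Sprague–Dawley rats at postnatal day 2 and were grown for 3 days with PDGF-BB and bFGF, which drive their division. They were moved to differentiating medium with the thyroid hormone T3 and transfected at once with 50 nM of a siRNA pool against rat Gpr17 (siGPR17) or of non-targeting RNAs (siNEG). Lysis followed after 48 h, on day 2 of differentiation. Each condition had 2 samples, and each sample was read on 1 one-color array. The sources call the samples independent, and p-values below measure only the spread between these samples. All 4 arrays lay on 1 slide read in 1 scan, with siNEG in column 4 and siGPR17 in column 3, so that treatment and slide column are confounded and cannot be told apart. The 75th percentile of the signal, by which each array was scaled, was 615.6 and 624.1 in siNEG and 595.6 and 564.9 in siGPR17. Between 26997 and 28244 probes were well above background on an array, no non-control spot was saturated, and the log2 values of any 2 arrays correlated with r between 0.992 and 0.996 across probes, which are not independent replicates.

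Progress through G1 depends on cyclin-dependent kinases (CDKs) that D-type cyclins switch on in response to mitogens, and that then phosphorylate the retinoblastoma protein and release E2F factors. INK4 inhibitors bind Cdk4 and Cdk6 and keep D-type cyclins off, whereas Cip/Kip inhibitors bind a broader range of cyclin and CDK complexes. In the oligodendrocyte lineage, withdrawal from the cell cycle accompanies differentiation, and the Cip/Kip inhibitor p27 is a well-known part of it.

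The silenced gene was checked first. The Gpr17 probe A_64_P018212 had a normalized signal of 1107 and 1113 in the siNEG samples and of 652.3 and 639.4 in the siGPR17 samples. Both siGPR17 samples lay below both siNEG samples, with a log2 fold change of −0.78 (SE 0.08) and an adjusted p of 0.209 in limma. In bulk RNA, fewer cells of a type and less RNA per cell cannot be told apart. Across all genes, 0 passed a fold of 1.5 with an adjusted p under 0.07 in limma (0% of genes), against 1884 at an unadjusted p under 0.05, 0 with the methods' t-test, 184 with limma's trend and robust options and 112 after normexp background correction. Gpr17 passed with the trend and robust options (adjusted p = 0.0152) and after normexp (adjusted p = 0.0220); over all alternatives its adjusted p in limma and the methods' t-test lay between 0.0152 and 0.665.

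Among the 10 genes, 6 were higher and 4 lower in siGPR17 OPCs when each gene was represented by its brightest tested probe, and both the count and the names of the lower genes held under every scaling tried. The Cdkn1a difference was the largest upward and the Ccnd2 difference the largest downward, and the remaining 8 stayed within a fold of 1.5. A fold of 1.5 or more was reached by 1 member upward, as by 2.43% of all genes, and by 1 member downward, as by 2.65% of all genes. The 2 siGPR17 samples did not overlap the 2 siNEG samples for 5 members that were higher, as for 28.1% of all genes, and for 2 members that were lower, as for 25.3% of all genes. The median log2 fold change of the 10 genes was 0.07, and that of all genes was 0.01. Since the members were chosen by this contrast, nothing is read from these shares.

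**Figure D1:**
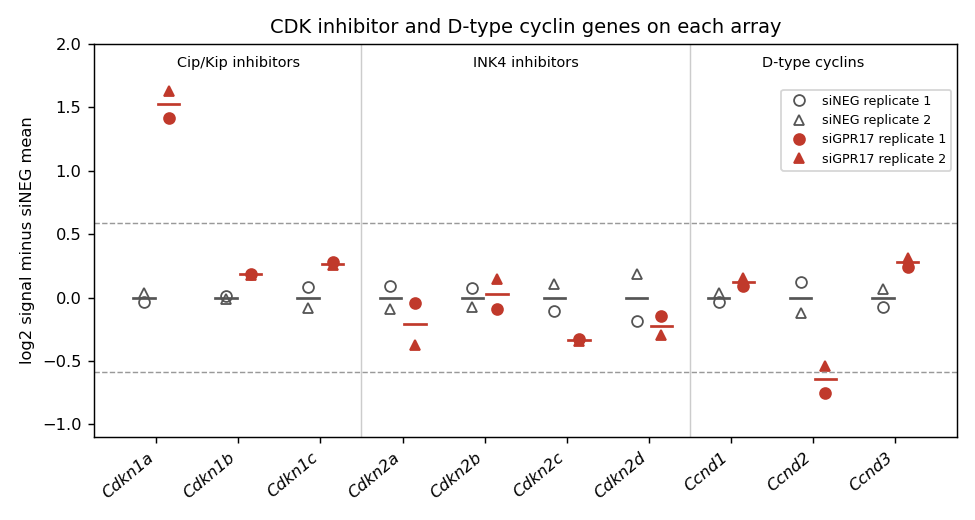
Log2 normalized signal of the brightest probe of each CDK inhibitor and D-type cyclin gene on each of the 4 arrays, minus the mean of the 2 siNEG arrays. Open gray symbols are siNEG and filled red symbols siGPR17 samples, circles replicate 1 and triangles replicate 2, short lines group means, and dashed lines a fold of 1.5; the Cdkn1a mean lies at 1.52 and the Ccnd2 mean at −0.64.

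Of the Cip/Kip inhibitors, Cdkn1a encodes p21, a broad inhibitor of cyclin and CDK complexes and the best-known target of p53. Its brightest probe, A_44_P914438, gave 4125 and 4347 in the siNEG samples and 11299 and 13126 in the siGPR17 samples. The groups were far apart, with means of 4236 ± 157 and 12212 ± 1292 (SD, n = 2), a 2.88-fold difference and a log2 fold change of 1.52 (SE 0.12). By size it ranked 15 among the 6059 genes with a higher signal in siGPR17, which is the value that chose the family. The array carries this probe in 10 spots, which are repeated readings of 1 RNA sample and not replicates. In siNEG the spots ran from 3808 to 4370 in replicate 1 and from 4064 to 4604 in replicate 2. In siGPR17 they ran from 10663 to 11794 in replicate 1 and from 12787 to 13522 in replicate 2. No siGPR17 spot came down to a siNEG spot, and the coefficient of variation among the 10 spots was between 1.83% and 4.30% on every array. A second Cdkn1a probe, A_44_P515275, with a signal of 40.9 and 54.6 in siNEG and of 113.2 and 117.6 in siGPR17, had a log2 fold change of 1.29 (SE 0.17). Both probes therefore put both siGPR17 samples above both siNEG samples.

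**Figure D2:**
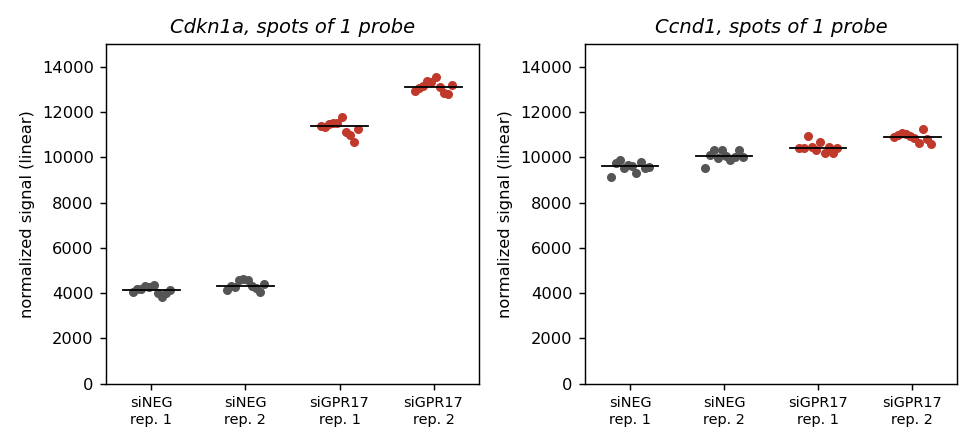
Normalized signal on a linear axis of each spot of the brightest Cdkn1a probe (left) and the brightest Ccnd1 probe (right) on each array, 10 spots per probe and array, with the median as a line. The Cdkn1a medians were 4145 and 4312 in siNEG and 11364 and 13114 in siGPR17; the Ccnd1 medians were 9593 and 10038 in siNEG and 10404 and 10909 in siGPR17.

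Cdkn1b encodes p27, which restrains Cdk2 and is held at high levels in resting cells. Its brightest probe, A_43_P11268, gave 2470.4 and 2423 in siNEG and 2782 and 2770.3 in siGPR17. The siGPR17 samples were both higher, by a log2 fold change of 0.18 (SE 0.08). The second probe, A_44_P508264, gave 2442 and 2604 in siNEG and 2605 and 2508 in siGPR17, with groups that overlapped and a log2 fold change of 0.02 (SE 0.09), so the separation seen with one Cdkn1b probe was not seen with the other. The second probe had the higher siNEG mean, 2523 against 2447. The first was thus the brightest only through its siGPR17 mean, 2776 against 2557. By that choice Cdkn1b counts among the 5 higher members without overlap. Cdkn1c encodes p57, the imprinted member of the family. Its brightest probe, A_44_P1164116, gave 61939 and 55401 in siNEG and 70983 and 70050.5 in siGPR17. The difference was a log2 fold change of 0.27 (SE 0.10), and the groups did not overlap. The second probe, A_64_P165085, gave 39762 and 44458 in siNEG and 50099 and 50377 in siGPR17, a log2 fold change of 0.26 (SE 0.10), again with no overlap. All 3 Cip/Kip genes were thus higher in siGPR17 by their brightest probes, Cdkn1a by a fold of 2.88 and Cdkn1c by a fold of 1.20.

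Of the INK4 inhibitors, Cdkn2c was the single gene whose groups did not overlap. It encodes p18, an inhibitor of Cdk4 and Cdk6, and its probe A_43_P13144 gave 735.2 and 848.5 in siNEG and 628.6 and 624.6 in siGPR17. The 2 siGPR17 values were nearly equal and below both siNEG values, with a log2 fold change of −0.33 (SE 0.11). Cdkn2d encodes p19, a further INK4 inhibitor, and its probe A_44_P444257 gave 2747 and 3560 in siNEG and 2826 and 2543 in siGPR17. Here the groups overlapped, and the log2 fold change of −0.22 (SE 0.16) shrank to −0.04 when siNEG replicate 2 was left out and widened to −0.41 when replicate 1 was. Cdkn2a encodes p16 and, from another reading frame, the p53 activator ARF; which of the transcripts its probe reads was not analysed here. Its probe A_64_P071770 gave 324.4 and 285.7 in siNEG and 295 and 235.5 in siGPR17. The groups overlapped, with a log2 fold change of −0.21 (SE 0.15) that was −0.04 without siGPR17 replicate 2 and −0.37 without siGPR17 replicate 1.

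Cdkn2b encodes p15, an INK4 inhibitor known to respond to TGF-β, and it lies on the same chromosome as Cdkn2a with 1 protein-coding gene between them. The brightest of its 3 probes, A_42_P528537, gave 357.6 and 321.0 in siNEG and 318.6 and 374.5 in siGPR17. The samples of the groups were interleaved, and the log2 fold change of 0.03 (SE 0.13) turned to −0.09 without siGPR17 replicate 2 and to −0.05 without siNEG replicate 2. The second probe, A_44_P1105832, gave 59.2 and 50.6 in siNEG and 114.7 and 51.3 in siGPR17. Its log2 fold change was 0.49 (SE 0.42), with siGPR17 replicate 1 apart from the other 3 samples and the groups overlapping. The third probe, A_44_P1105827, gave 9.39 and 18.9 in siNEG and 11.2 and 20.7 in siGPR17, was well above background on 1 array and was not tested.

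Of the D-type cyclins, Ccnd2 encodes cyclin D2, a partner of Cdk4 and Cdk6 in progenitor cells. Its probe A_44_P477768 gave 668.9 and 566.6 in siNEG and 365.3 and 424.5 in siGPR17. Both siGPR17 samples were below both siNEG samples, with means of 617.8 ± 72.3 and 394.9 ± 41.8 (SD, n = 2) and a log2 fold change of −0.64 (SE 0.14). By size it ranked 224 among the 5597 genes with a lower signal in siGPR17. The difference came under a fold of 1.5 when siNEG replicate 1 was left out (−0.52), when siGPR17 replicate 1 was left out (−0.54), with spike-in scaling (−0.52) and after normexp (−0.53). Ccnd1 encodes cyclin D1, the cyclin most directly induced by mitogens. Its brightest probe, A_44_P1089636, in 10 spots, gave 9571 and 10050 in siNEG and 10434 and 10900 in siGPR17. The siGPR17 samples were above the siNEG samples by a log2 fold change of 0.12 (SE 0.09), and no sample of one group crossed into the other. The gaps between the samples of 1 group were 0.07 in siNEG and 0.06 in siGPR17. Single spots did overlap, reaching up to 10336 in siNEG replicate 2 and down to 10170 in siGPR17 replicate 1. The second probe, A_64_P155393, gave 4439 and 4897 in siNEG and 4901 and 4982 in siGPR17, where the lower siGPR17 value barely cleared siNEG, with a log2 fold change of 0.08 (SE 0.10). Ccnd3 encodes cyclin D3, and its probe A_43_P15524 gave 1019 and 1124 in siNEG and 1267 and 1332 in siGPR17. Both siGPR17 samples were higher, with a log2 fold change of 0.28 (SE 0.10). By their brightest probes Ccnd2 was thus lower and Ccnd1 and Ccnd3 higher, and the difference between the 3 cyclins was not tested.

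The genes whose values over the 4 arrays were most like those of Cdkn1a, after each gene was centered on its own mean, were Pgf, Ptprv, Slc35g2 and Mgmt, by Euclidean distances of 0.15 to 0.22 on the log2 scale, and Epha4, whose place rests on siNEG signals not above background. This likeness covers 4 arrays only. Pgf, a growth factor of the VEGF family, gave 753.1 and 811.7 in siNEG and 2363 and 2581 in siGPR17. Mgmt, a DNA repair enzyme, gave 883.2 and 950.1 in siNEG and 2953 and 2966 in siGPR17. Epha4, an ephrin receptor, gave 22.3 and 27.3 in siGPR17 but did not clear the background on the siNEG arrays, so no fold is given for it.

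The genes around the family were followed in 8 lists written from general knowledge, with 181 different genes of which 152 had a tested probe, and 4 genes stood in more than 1 list. In limma, 0 of the tested genes of any list passed a fold of 1.5 with an adjusted p under 0.07, and 0 did so with the methods' t-test. At an unadjusted p under 0.05, limma called 7.43% of all genes higher and 8.73% lower in siGPR17. With trend and robust options 0.746% of all genes passed upward and 0.832% downward. Groups did not overlap for 28.1% of all genes upward and 25.3% downward. The counts upward and downward were 2 and 5 of 15 tested CDKs and other cyclins. They were 3 and 6 of 15 pocket protein, E2F and DREAM genes, and 7 and 7 of 20 genes of inhibitor turnover. Regulators of CDK inhibitor genes had 3 and 10 of 24, and other antiproliferative genes 5 and 8 of 19. E2F target replication genes had 2 and 8 of 16, and mitogen receptors and D-type cyclin inducers 10 and 6 of 24. Scaling on the spike-in controls moved the median of all genes by 0.13 on the log2 scale, and it moved each list by about as much.

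The CDKs and other cyclins are the kinases themselves and the cyclins of later phases. Of the 19 genes, 15 were tested, with 5 higher and 10 lower in siGPR17, 0 and 2 of them at an unadjusted p under 0.05, and a median log2 fold change of −0.11, which lay between −0.15 without siNEG replicate 2 and 0.01 with spike-in scaling. Ccna1, a cyclin best known from the germline, gave 178.6 and 186.2 in siNEG and 113.8 and 115.1 in siGPR17, a log2 fold change of −0.67 (limma adjusted p = 0.209), and it passed with the trend and robust options, whereas its other probe gave −0.24 (limma adjusted p = 0.420). Ccne1, the cyclin that activates Cdk2 at the start of S phase, had a log2 fold change of −0.39 (limma adjusted p = 0.328), and Ccnb1, the mitotic cyclin, one of −0.34 (limma adjusted p = 0.261). Cdk2 gave 3130.3 and 3384 in siNEG and 2840.5 and 2393 in siGPR17, with no overlap and a log2 fold change of −0.32 (limma adjusted p = 0.318). Cdk4 and Cdk6, the partners of the D-type cyclins, had overlapping groups and log2 fold changes of −0.11 (SE 0.12) and −0.13 (SE 0.11) by their brightest probes. The second Cdk6 probe gave −0.40 (SE 0.26) with overlapping groups. The third pointed the other way, with 0.37 (SE 0.15), and was well above background on 1 of the 2 siNEG arrays.

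The pocket proteins, E2F factors and DREAM subunits carry the signal from CDKs to the genes of S phase. Of 20 genes 15 were tested, 7 higher and 8 lower, with 1 and 2 at an unadjusted p under 0.05 and a median of −0.11. This median turned to 0.02 with spike-in scaling and to 0.01 when all tested probes of a gene were averaged, and leaving out 1 sample gave −0.12 (siNEG replicate 1), −0.02 (siNEG replicate 2), −0.03 (siGPR17 replicate 1) and −0.04 (siGPR17 replicate 2). Tfdp2, a partner of E2F factors, gave 389.6 and 464.6 in siNEG and 282.3 and 294.5 in siGPR17, with a log2 fold change of −0.56 (limma adjusted p = 0.216). E2f3, an activator of S phase genes, gave 155.3 and 139.0 in siNEG and 213.1 and 206.5 in siGPR17, with 0.51 (limma adjusted p = 0.211). E2f6, a repressor, had −0.30 (limma adjusted p = 0.249). Rb1, which encodes the retinoblastoma protein, gave 1289 and 1473 in siNEG and 1460.4 and 1460.2 in siGPR17, so that its siGPR17 values lay within the siNEG range.

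The genes of CDK inhibitor turnover and CDK phosphorylation include the ligases that mark p21 and p27 for degradation. Of 22 genes 20 were tested, 11 higher and 9 lower, with 2 and 1 at an unadjusted p under 0.05, and the median of 0.01 was close to that of all genes and lay between −0.06, when all tested probes of a gene were averaged, and 0.14 with spike-in scaling. Ubac1, a subunit of a ligase for p27, had a log2 fold change of 0.38 (limma adjusted p = 0.265), and Cul4b, a cullin scaffold, had 0.35 by its brightest probe (limma adjusted p = 0.241) but −0.03 with overlapping groups by the other (limma adjusted p = 0.917). Skp2, which recognises phosphorylated p27, gave 359.9 and 372.1 in siNEG and 311.9 and 304.0 in siGPR17, with no overlap and −0.25 (limma adjusted p = 0.287).

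The regulators of CDK inhibitor genes comprised 27 genes, 24 of them tested, with 7 higher and 17 lower, 2 and 3 at an unadjusted p under 0.05, and a median of −0.09 that was −0.04 without siNEG replicate 2, −0.02 when all tested probes of a gene were averaged and 0.04 with spike-in scaling. Mycn, a MYC family factor of proliferating progenitors, gave 391.0 and 397.7 in siNEG and 240.0 and 199.0 in siGPR17. That is a log2 fold change of −0.85 (limma adjusted p = 0.209), and Mycn passed with the trend and robust options and after normexp. Mdm2, the ligase of p53 and itself a p53 target, gave 1897 and 2029.7 in siNEG and 2461 and 2604 in siGPR17, with 0.37 (limma adjusted p = 0.235). Max, the partner of MYC factors, had −0.31 (limma adjusted p = 0.274).

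Among p53 targets other than Cdkn1a, 23 of 28 genes were tested, 18 were higher and 5 lower in siGPR17, and the median log2 fold change was 0.25 against 0.01 over all genes. It lay between 0.21 without siGPR17 replicate 2 and 0.38 with spike-in scaling, where the median of all genes was 0.14. The groups did not overlap for 16 genes that were higher, as for 28.1% of all genes, and for 3 that were lower, as for 25.3% of all genes, and 8 and 1 were at an unadjusted p under 0.05. The counts of tested, higher and higher non-overlapping genes include Rrm2b, a ribonucleotide reductase subunit named after its values were seen, and the 8 do not. Rrm2b cleared the background in siGPR17 alone and entered through that group, so no fold is given for it. The median was 0.24 with probes detected on all 4 arrays. The list was written with earlier results of these data known and supports nothing on its own. Phlda3, an inhibitor of Akt signaling, gave 94.2 and 81.0 in siNEG and 134.9 and 132.8 in siGPR17, a log2 fold change of 0.62 (limma adjusted p = 0.210). Fas, a death receptor, had 0.59 (limma adjusted p = 0.245), and Bax, which permeabilises mitochondria in apoptosis, had 0.53 (limma adjusted p = 0.266). Bbc3, another apoptosis gene, was lower, with 6323 and 6374 in siNEG and 5227 and 4347 in siGPR17. Its log2 fold change was −0.41 (limma adjusted p = 0.261), and it was named after its value was seen.

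**Figure D3:**
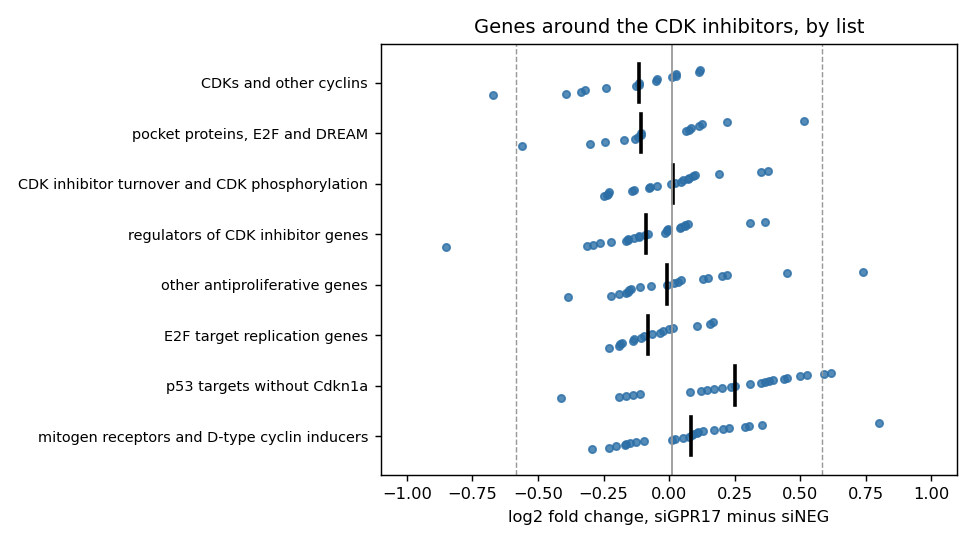
Log2 fold change (siGPR17 minus siNEG) of each tested gene in 8 lists of genes around the CDK inhibitors, 1 point per gene by its brightest tested probe, spread vertically by rank. Thick black bars are list medians, the gray line is the median of all genes (0.01) and dashed lines a fold of 1.5; the p53 target median lies at 0.25 and that of E2F target replication genes at −0.08, which turned to 0.05 with spike-in scaling.

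Other antiproliferative genes, 19 of 21 tested, were split into 9 higher and 10 lower, with 1 and 0 at an unadjusted p under 0.05 and a median of −0.01 that lay between −0.07 without siNEG replicate 1 and 0.12 with spike-in scaling. Tob1, an antiproliferative protein of the BTG family, gave 20.7 and 9.87 in siNEG and 24.98 and 22.8 in siGPR17, with a log2 fold change of 0.74 (limma adjusted p = 0.403), and it was well above background on 1 of the 2 siNEG arrays. Btg2, of the same family, had 0.45 (limma adjusted p = 0.276), and Cdkn2aip, a binding partner of ARF, had −0.38 (limma adjusted p = 0.308).

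The E2F target replication genes report entry into S phase. Of 20 genes 16 were tested, 4 higher and 12 lower in siGPR17, 0 at an unadjusted p under 0.05 in limma in either direction, with a median of −0.08 that was −0.05 without siNEG replicate 2, −0.10 without siNEG replicate 1 and 0.05 with spike-in scaling. Mcm4, a helicase subunit, gave 3847 and 4313 in siNEG and 3686 and 3446 in siGPR17, with a log2 fold change of −0.19 (limma adjusted p = 0.427), and Mki67, the proliferation marker, had −0.19 by its brightest probe (limma adjusted p = 0.453). The other tested Mki67 probes gave 0.02, −0.08 and −0.06 with overlapping groups, and the other Mcm4 probes gave −0.18 without overlap and −0.01 with overlapping groups.

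Of 28 mitogen receptors and D-type cyclin inducers 24 were tested, 16 higher and 8 lower, with 1 and 1 at an unadjusted p under 0.05 and a median of 0.08 that lay between 0.03 without siGPR17 replicate 2 and 0.21 with spike-in scaling. Fgfr2, a receptor of fibroblast growth factors, gave 2425 and 2347 in siNEG and 4093 and 4213 in siGPR17, a log2 fold change of 0.80 (limma adjusted p = 0.209), and it passed with the trend and robust options and after normexp. Erbb3, a neuregulin receptor, had 0.36 (limma adjusted p = 0.305), and Mapk3, which encodes the kinase ERK1, 0.31 (limma adjusted p = 0.307).

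The cell type was checked by markers. The defining precursor markers Pdgfra, Cspg4, Olig2 and Sox10 were well above background on all 4 arrays, as were Bcas1 and Enpp6 of newly formed and Mbp and Mag of mature oligodendrocytes. The 10 tested precursor genes were all lower in siGPR17 by log2 fold change, except under 3 alternatives. Olig1, Sox10 and Nkx2-2 turned upward with spike-in scaling, Sox10 after normexp, and Olig1, Sox10 and Gpr37l1 without siNEG replicate 2. Of the 10 genes, 2 were at an unadjusted p under 0.05, as were 8.73% of all genes in this direction, and 7 had groups that did not overlap, as had 25.3% of all genes in this direction. The median of −0.19 was −0.06 with spike-in scaling and −0.10 without siNEG replicate 2. The summed signal was 264864 and 315074 in siNEG and 254308 and 255344 in siGPR17. The Olig2 probe was the brightest by group mean, though the Olig1 probe was above it in siGPR17 replicate 2. Newly formed oligodendrocyte genes, which include the silenced Gpr17, were split into 4 higher and 4 lower, with 0 and 3 at an unadjusted p under 0.05. Their sums were 203345 and 211085 in siNEG and 179238 and 179518 in siGPR17, and the Tns3 probe was the brightest. The median of −0.01 lay between −0.12 without siNEG replicate 1 and 0.12 with spike-in scaling, and was 0.06 without siNEG replicate 2. Of 10 mature oligodendrocyte genes 4 were higher and 6 lower, with sums of 417067 and 484826 in siNEG and 469756 and 484990 in siGPR17. The median was −0.18, and −0.05 with spike-in scaling and −0.02 without siNEG replicate 2. Of these genes, 4 higher and 5 lower had groups without overlap, as had 28.1% and 25.3% of all genes. Mbp, with the brightest probe, was higher without overlap. It gave 197178 and 227699 in siNEG and 256521 and 272873 in siGPR17, a log2 fold change of 0.32 (limma adjusted p = 0.294). Mog went the other way, with 359.3 and 413.2 in siNEG and 255.6 and 227.9 in siGPR17. Its log2 fold change was −0.67 (limma adjusted p = 0.210), and its second probe gave −0.27 with overlapping groups. The sums add each tested gene's brightest probe, and signals of different probes do not rank their genes by abundance. In the 8 cell type lists 0 genes passed in limma, and 0 did so in the methods' t-test. Kdr was higher, by a log2 fold change of 0.68, and passed under limma's trend and robust options, as did 0.746% of all genes upward. Gpr17, Neu4 (−0.61), Mog, Gfap and Aqp4 were lower and passed under these options, as did 0.832% of all genes downward. Of these genes, Neu4, Mog and Kdr were named after their values were seen.

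Markers of other cells differed between the groups as well, and their part in the values of the CDK inhibitors and cyclins was not tested. All 4 tested endothelial genes of 8 were higher in siGPR17 without overlap, as were 28.1% of all genes. Their sums were 1175 and 1075 in siNEG and 1644 and 1558 in siGPR17, and the Vwf probe was the brightest. The defining endothelial markers Pecam1 and Cldn5 cleared the background on none of the 4 arrays. All 3 tested fibroblast and mural genes of 8 were higher by log2 fold change, and the Col1a2 probe was the brightest. The sums of these genes were 439.8 and 334.1 in siNEG and 454.7 and 450.4 in siGPR17. Their median of 0.27 was 0.06 without siNEG replicate 2 and 0.41 without replicate 1; Rgs5 cleared the background on none of the 4 arrays, and Col1a1 did on each. Of 9 tested astrocyte genes 4 were higher and 5 lower, with sums of 117724 and 132545 in siNEG and 121070 and 122344 in siGPR17. The brightest probe, that of Aldoc, alone gave 107483 and 121582 in siNEG and 111314 and 112583 in siGPR17. The median of −0.03 was −0.18 without siNEG replicate 2, −0.12 without siNEG replicate 1, −0.11 with quantile normalization and 0.10 with spike-in scaling. The astrocyte marker Aqp4 gave 160.9 and 168.8 in siNEG and 72.9 and 57.1 in siGPR17, and Gfap gave 295.4 and 261.4 in siNEG and 167.7 and 198.1 in siGPR17. S100b, named after its values were seen, went the other way, with 2256 and 2524 in siNEG and 3338 and 3415 in siGPR17. Its second probe was also higher without overlap, and the other 3 higher astrocyte genes, Gja1, Aldh1l1 and Sox9, had overlapping groups by their brightest probes. Of 9 tested microglial genes 8 were lower, with sums of 4003 and 2700.4 in siNEG and 2706 and 3163 in siGPR17. Groups did not overlap for 3 lower genes, as for 25.3% of all genes in this direction. Single microglial genes turned their direction under 5 alternatives. Several lower ones turned upward without siNEG replicate 1, among them Cx3cr1, from −0.15 to 0.36. The Cx3cr1 probe was the brightest, and Aif1 was well above background on all 4 arrays. The microglial median of −0.19 became −0.52 when siNEG replicate 2 was left out and 0.06 when replicate 1 was. By their brightest probes the 9 tested neuronal genes were lower, except that Rbfox3 turned upward with spike-in scaling and Syt1 with that and 5 other alternatives. Of the 9 genes, 4 were at an unadjusted p under 0.05, as were 8.73% of all genes in this direction. Groups did not overlap for 6 of them, as for 25.3% of all genes in this direction. The sums were 7544 and 8953 in siNEG and 7304 and 7068 in siGPR17, and the Map2 probe was the brightest. The defining markers Rbfox3 and Tubb3 were well above background on all 4 arrays. The median of −0.21 was −0.08 with spike-in scaling and −0.34 without siNEG replicate 1. Syt1 gave −0.01 with overlapping groups by its brightest probe and 0.26 without overlap by its other probe.

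The promoter windows of 7 members were taken from RefSeq (assembly GRCr8), 250 bases before the listed start of each gene, and no window was used for Cdkn1c, Ccnd1 and Ccnd2. Both strands were searched for the GC box written GGGCGG, the cAMP response element written TGACGTCA and the E-box written CACGTG. The CCAAT box was searched by its own letters and the TATA box by the letters TATAAA. These and the E2F forms below were also searched on both strands, so that ATTGG in capitals is a CCAAT match. The E2F site was searched in a form with CG in its core, TTTCGCGC, a form with CC there, TTTCCCGC, and a form with GG there, TTTGGCGC. The windows printed are 3, Cdkn1a because its signal differed most, Cdkn1b as its closest relative with a window, and Cdkn2b because it held the cAMP response element. Capitals mark matches. The Cdkn1a window is chr20:7150682-7150931 on the + strand, that of Cdkn1b chr4:169491254-169491503 on the + strand and that of Cdkn2b chr5:109134856-109135105 on the - strand.
Cdkn1a: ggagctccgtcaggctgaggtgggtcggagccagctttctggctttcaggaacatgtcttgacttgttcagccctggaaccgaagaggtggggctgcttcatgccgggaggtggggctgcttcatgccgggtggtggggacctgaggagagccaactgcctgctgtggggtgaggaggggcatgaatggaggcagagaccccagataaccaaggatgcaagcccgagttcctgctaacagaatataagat
Cdkn1b: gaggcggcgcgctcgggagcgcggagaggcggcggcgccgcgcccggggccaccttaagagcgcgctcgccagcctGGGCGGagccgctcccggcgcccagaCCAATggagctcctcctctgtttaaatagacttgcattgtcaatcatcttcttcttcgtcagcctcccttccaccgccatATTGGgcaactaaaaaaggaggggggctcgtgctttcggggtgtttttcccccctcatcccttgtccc
Cdkn2b: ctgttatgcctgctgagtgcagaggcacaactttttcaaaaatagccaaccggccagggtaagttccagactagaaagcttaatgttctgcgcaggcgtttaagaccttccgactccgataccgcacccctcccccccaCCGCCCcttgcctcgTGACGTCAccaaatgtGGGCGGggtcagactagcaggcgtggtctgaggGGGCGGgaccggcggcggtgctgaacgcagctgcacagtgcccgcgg

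The Cdkn1a window held 0 matches to any of these letters, and 6 CpG dinucleotides against a median of 5 over all 33469 windows of this length. The other 6 windows each held at least 1 GC box, as did 30.5% of all windows, with 5 in Cdkn2d and 3 in Cdkn2b. The CCAAT letters, in 34% of all windows, occurred 2 times in Cdkn1b and 1 time in Ccnd3. The cAMP response element of Cdkn2b is found in 1.59% of all windows. The CpG count was 23 in Cdkn1b, 18 in Cdkn2b, 24 in Cdkn2c, 20 in Cdkn2d, 22 in Ccnd3 and 8 in Cdkn2a. None held the E-box (5.59% of all windows), TATAAA (12.9%) or the E2F forms (0.248%, 0.813% and 0.412%). These matches describe letters in 1 window of each gene, and nothing is drawn from them about any factor.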

How the data were processed

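Each array came as 1 file, in which the authors deposited spot intensity values that Agilent Feature Extraction 10.7.3.1 had corrected for background and not normalized between arrays. The flags for background, saturation and outliers and the spot positions came from the same deposited files, and the spot medians and background medians that normexp used are uncorrected intensities per the file headers. Control and outlier-flagged spots were left out, spots of a probe were averaged on the log2 scale, and each array's 75th percentile was subtracted; signals are these values times 1 common factor. Values were complete for 45565 probes, of which 28016 were well above background on at least 2 arrays and were fitted with lmFit and eBayes of limma 3.58.1 (R 4.3.3), two-sided, adjusted by Benjamini-Hochberg over all of them. The thresholds, a fold of 1.5 and an adjusted p under 0.07, are those of the study's methods. The number of arrays limits the precision. A gene was represented by its brightest tested probe. Probes were named through RefSeq accessions of GRCr8, which gave 21109 of 45598 probes a symbol. Groups came from the sample labels. The methods' t-test is the unpaired two-tailed test that the general statistics section names. The fit was tested on simulated data. Members and lists were chosen with earlier results of these data known. The genes named by rule are the members, Gpr17, the 3 genes with the largest absolute log2 fold change in each list, Cdk2, Cdk4, Cdk6 and Rb1, the brightest and defining markers of each cell type, and the 5 genes most like Cdkn1a; 2 genes that this rule takes are not reported here, and Bbc3, Rrm2b, Neu4, Mog, Kdr, S100b, Gja1, Aldh1l1, Sox9, Olig1, Nkx2-2, Gpr37l1 and Syt1 were added after their values were seen. The alternatives were quantile normalization, normexp (offset 50), spike-in scaling, scaling to a median of detected probes, other filters, the mean of a gene's probes, the methods' t-test, limma's trend with robust, the replicate block and leaving out each sample.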

Additional observations from a re-analysis of the deposited data

How the results depend on the processing

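The count of genes past both thresholds, 0 in limma, was 112 after normexp and 184 with trend and robust options, and 0 under every other alternative, the replicate block included. The count of genes with a fold of 1.5 or more, 592, was 122 after normexp, 1745 with no filter on dim probes and 371 with probes detected on all 4 arrays, the filters changing which genes are counted; leaving out 1 sample gave 692 to 948, the highest without siNEG replicate 1. Spike-in scaling turned the split of these genes from 283 higher and 309 lower to 511 higher and 155 lower. Of the 10 CDK inhibitor and D-type cyclin genes, 2 reached a fold of 1.5, and 1 did so after normexp and with spike-in scaling, and 1 to 2 when 1 sample was left out. The cause was not tested. Gpr17 was lower under every alternative, with log2 fold changes of −0.66 after normexp and −0.78 with trend and robust options, which both passed. Cdkn1a was between 1.41 and 1.65 over the 12 alternatives for which its estimate was recomputed, and of the 10 genes Cdkn2b alone turned its direction, in 2 of them. The replicate numbers in the labels pair 2 samples each and were not shown to pair them: deviations of samples with the same number correlated across probes at r = −0.0652, and the replicate block left the counts at 0 and 592. Where a group has 1 sample left, it is assumed to vary like the other group. Dim probes, such as 2 of the 3 Cdkn2b probes, limit what signal over background can show.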
